A study of Homo sapiens with 24 samples.

Results

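The genes described here are 34 genes of autophagy and the lysosome among the 58735 genes of the deposited table, chosen by gene name: the LC3 and GABARAP proteins, cargo receptors, the kinase and conjugation machinery of the autophagosome, the transcription factors TFEB, TFE3 and MITF, and proteins of the lysosomal membrane and lumen. They were measured by RNA sequencing in Sem and Nalm6, established lines grown from acute lymphoblastic leukaemia of B cell precursors, of which Sem carries a KMT2A rearrangement. Cells of each line received ibrutinib at 10 µM together with asparaginase, asparaginase alone, ibrutinib alone at 10 µM, or no drug. Drug treatment lasted 24 h and is listed as 0 h for untreated cells, so matched time in culture cannot be taken from it. Each of the 8 groups had 3 libraries. Ibrutinib is a covalent inhibitor of Bruton's tyrosine kinase, and asparaginase is an enzyme drug that removes asparagine, and to a lesser degree glutamine, from the medium. The labels give the asparaginase dose as 1 IU/ml in the sample characteristics and as 0.5 IU/ml in the treatment protocol. The comparison cells were untreated, with no vehicle named, and 1 line stands for each leukaemia type, so a difference between the lines cannot be told apart from a difference between these cultures. The libraries are described as triplicates without mention of separate cultures, so the p-values describe how far these libraries scatter and may reflect technical scatter alone.

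In macroautophagy, a kinase complex around ULK1 and a lipid kinase complex around BECN1 and ATG14 start a double membrane. Ubiquitin-like conjugation through ATG7, ATG3, ATG5, ATG12 and ATG16L1 then attaches LC3 and GABARAP proteins to it, receptors such as SQSTM1 and NBR1 bring in cargo, and the closed vesicle fuses with the lysosome, whose hydrolases digest the content. The process returns amino acids to the cell when supply from outside falls, and the related factors TFEB, TFE3 and MITF, which are held in the cytoplasm by mTORC1 signalling in fed cells, switch on many of its genes through E-box sequences in their promoters.

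Because TFEB, TFE3 and MITF bind the E-box CACGTG, the promoters of the genes were searched for it, and the windows that hold it follow. RefSeq promoters on GRCh38.p14, covering 250 bases before to 50 bases after the start site, were matched for 30 of the 34 genes; LAMP2, CTSB, HEXA and PSAP were named only. CACGTG, which reads the same on both strands, stood in 7 of the 30 promoters (23.3%), against 2030 of 27305 RefSeq promoters of the same length (7.43%). The longer form TCACGTGA, which contains it, stood in 4 of the 30 (13.3%), against 283 of all 27305 (1.04%). TGATGNAAN, a C/EBP-ATF element searched on both strands, stood in 0 of the 30, against 3.67% of all promoters. In the lines that follow the capitals mark CACGTG, and each sequence is given 5′ to 3′ on the strand of its gene.
LAMP1 (chr13:113297035-113297114, plus strand): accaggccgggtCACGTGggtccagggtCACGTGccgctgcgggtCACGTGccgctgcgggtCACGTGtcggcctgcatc
LAMP1 (chr13:113297199-113297255, plus strand): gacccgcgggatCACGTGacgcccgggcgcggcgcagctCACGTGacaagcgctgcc
MCOLN1 (chr19:7522571-7522627, plus strand): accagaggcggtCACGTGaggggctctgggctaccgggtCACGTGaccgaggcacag
CTSA (chr20:45891281-45891327, plus strand): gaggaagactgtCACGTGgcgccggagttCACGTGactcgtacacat
ATG3 (chr3:112561940-112561992, minus strand): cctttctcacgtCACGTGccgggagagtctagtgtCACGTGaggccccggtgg
CTSD (chr11:1763957-1763986, minus strand): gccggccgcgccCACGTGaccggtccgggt
NEU1 (chr6:31862930-31862959, minus strand): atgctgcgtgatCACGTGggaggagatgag
ATG14 (chr14:55411834-55411863, minus strand): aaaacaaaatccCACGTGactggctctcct
LAMP1 held 6 copies, and MCOLN1, CTSA and ATG3 held 2 copies each. In Nalm6 cells given both drugs, CTSD, NEU1, ATG14 and CTSA of these 7 genes rose, ATG3 fell, and LAMP1 and MCOLN1 did not pass the test. MAP1LC3B, NBR1, TFE3 and SQSTM1, which rose more than any of these 7, had no CACGTG in the window searched. PSAP, CTSB, LAMP2 and HEXA rose there too, but had no matched promoter and were not searched. Whether the motif has a part in these changes was not tested. A match is a description of the letters in that window and not evidence of binding.

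The 24 libraries held 15032809 to 18135579 reads assigned to genes, and between 11874 and 12850 genes were at 1 FPKM or more. FPKM is the number of fragments scaled by gene length and library size, so levels can be compared between genes. The ratio of deposited FPKM to FPKM scaled by the reads assigned differed between groups. In Nalm6 it was 0.9153 to 0.9186 in combination and 0.9157 to 0.933 in asparaginase libraries. Ibrutinib libraries had 0.9572 to 0.9732 and untreated ones 1.005 to 1.018. Sem libraries had 1.017 to 1.043 with both drugs, 1.029 to 1.057 with asparaginase, 1.029 to 1.052 with ibrutinib and 1.064 to 1.088 untreated. Limma-voom on the recovered reads scales by those reads and so does not carry this ratio. With it the Nalm6 combination calls were 22 higher and 2 lower (41.0% and 24.9% of all genes). The main fit on FPKM gave 14 higher and 5 lower (32.4% and 31.3% of all). The 2 fits differ in more than the scaling, so the part of the ratio alone was not tested. Of the precursor B cell markers, PAX5 and VPREB1 averaged 37.4 FPKM or more in every group of both lines, whereas DNTT and RAG1 averaged 0.237 FPKM or less in every Sem group. The markers of KMT2A-rearranged leukaemia HOXA9, HOXA10 and MEIS1 were listed at 0 in all Nalm6 groups, whereas the 5 markers of that list summed to 532 FPKM or more in every Sem library. Of the 10 myeloid and macrophage markers, 5 or 6 were at 0 in each Nalm6 group and 3 or 4 in each Sem group, ELANE, S100A8 and S100A9 in all. Their summed level in Nalm6 was 7.24 to 7.88 FPKM in combination, 4.23 to 4.49 FPKM in asparaginase, 7.12 to 9.2 FPKM in ibrutinib and 12.3 to 14.5 FPKM in untreated libraries, nearly all of it LYZ. In Sem it was 2.04 to 2.6 FPKM in combination, 4.07 to 4.54 FPKM in asparaginase, 2.15 to 3.18 FPKM in ibrutinib and 5.18 to 6.52 FPKM in untreated libraries. Of the 8 T and NK cell markers, CD3D, CD3E, CD7 and KLRD1 were at 0 in every group, and the sum was 0.972 to 3.24 FPKM in Nalm6 and, with NKG7 as nearly all of it, 10.6 to 13.8 FPKM in Sem combination libraries against 18.4 to 24.6 FPKM in untreated ones. Single markers also differed: SDC1 of the plasma cell list averaged 9.77 FPKM in Nalm6 combination cells and 30.3 FPKM in untreated ones, and PDGFRB of the stromal list 6.84 FPKM in Sem combination cells and 12.6 FPKM in untreated ones. The part of these markers in the results was not tested. In Nalm6 the mitochondrial share of reads was 4.30 to 4.81% in combination and asparaginase libraries, against 3.58 to 3.91% in ibrutinib and untreated libraries, and its part in the results was not tested. By a chi-square comparison of counts, 5 libraries stood apart from the other 2 of their group: combination 1, asparaginase 1 and untreated 2 of Nalm6, and ibrutinib 2 and untreated 2 of Sem. In bulk RNA, fewer cells of one kind and less RNA per cell cannot be told apart.

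Untreated Sem cells carried more RNA for the prosaposin, cathepsin and receptor genes, and untreated Nalm6 cells more for the WIPI genes. Of 30 genes tested between the lines, 13 were higher in Sem (34% of all 15116 tested genes were) and 8 were lower in Sem (31.9% of all). PSAP, whose product is cut into the saposins that activate sphingolipid hydrolases, had the highest FPKM of the 34 genes, at 263 ± 9.97 in Sem and 51.6 ± 3.43 in Nalm6 (SD, n = 3 each). CTSZ, the carboxypeptidase cathepsin Z, stood at 51.1 ± 0.0828 FPKM in Sem, against 0 to 2 reads in each of the 3 Nalm6 libraries. ULK1 was at 11.9 ± 0.505 FPKM in Sem and 3.71 ± 0.372 FPKM in Nalm6, SQSTM1 at 18.4 ± 0.826 FPKM in Sem and 7.75 ± 0.27 FPKM in Nalm6, and TFEB at 9.52 ± 0.377 FPKM in Sem and 4.10 ± 0.244 FPKM in Nalm6. WIPI1, a phosphoinositide-binding protein of the forming autophagosome, went the other way, with 1.25 ± 0.208 FPKM in Sem and 5.38 ± 0.471 FPKM in Nalm6. On the log2(FPKM + 1) scale the Sem minus Nalm6 difference was 2.33 for PSAP (SE 0.046, limma adjusted p = 1.5e-19), 1.46 for ULK1 (SE 0.088, adjusted p = 1.3e-11), 1.15 for SQSTM1 (SE 0.041, adjusted p = 2.5e-15) and -1.50 for WIPI1 (SE 0.11, adjusted p = 2e-10). The calls of ATG2A and GLA, whose differences were -0.22 and -0.14, were lost without Sem untreated 1 (adjusted p = 0.0639 and 0.0657) and under some other omissions.

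**Figure D1:**
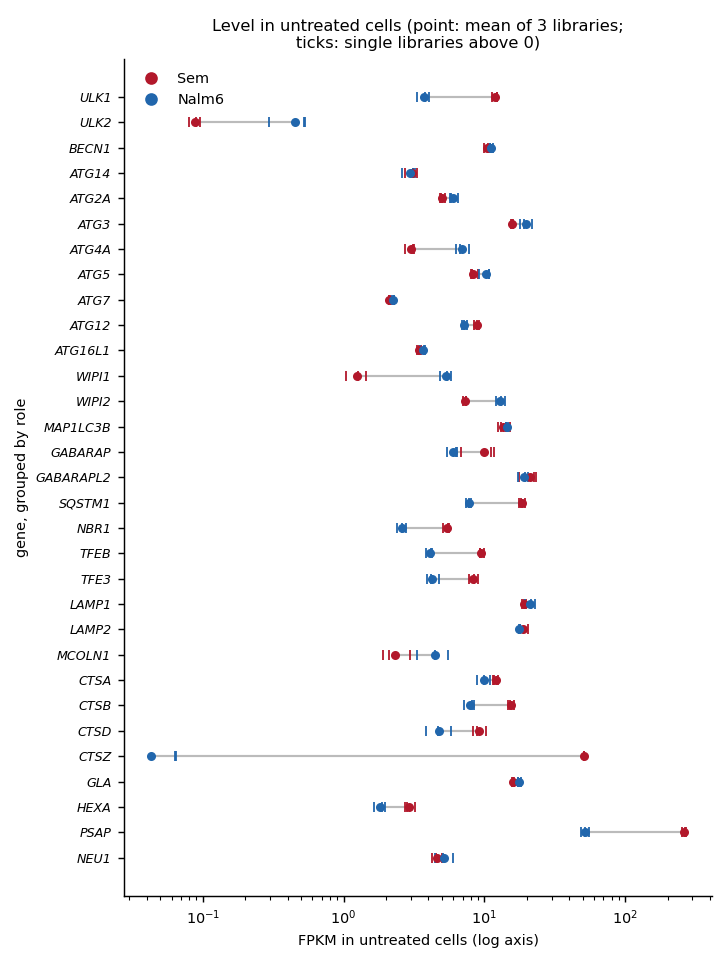
FPKM of each gene in untreated cells on a log axis, with Sem in red and Nalm6 in blue; points are means of 3 libraries and ticks are single libraries above 0. PSAP stands at 263 FPKM in Sem and 51.6 FPKM in Nalm6, CTSZ at 51.1 FPKM in Sem and near 0 in Nalm6, and MAP1LC3B almost at the same place in both; CTSL, MITF and GABARAPL1 are left out because they are near or at 0 in 1 or both lines.

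Both lines expressed most of the machinery, with a few gaps. CTSL, which encodes cathepsin L, was listed at 0 in all 24 libraries. MITF was listed at 0 in all 12 Nalm6 libraries and ran from 0.35 to 0.839 FPKM in Sem. GABARAPL1 had reads in 2 of 12 Nalm6 libraries, with 1 and 4 reads, and 0.219 to 1.23 FPKM in Sem. ULK2, the paralogue of ULK1, stayed at or under 0.53 FPKM in all 24 libraries. With the filter of 1 FPKM in at least 3 libraries, 29 genes were tested in Nalm6 (not CTSL, MITF, GABARAPL1, ULK2 and CTSZ) and 30 in Sem (not CTSL, MITF, GABARAPL1 and ULK2).

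The combination raised much of this set in Nalm6 and split it in Sem. In Nalm6, 14 of 29 genes were higher with both drugs than without (32.4% of all 13237 genes tested were) and 5 were lower (31.3% of all), and the median change of the 29 was 0.32 on the log2(FPKM + 1) scale, against 0.02 over all genes. Asparaginase alone raised 10 (28.2% of all) and lowered 4 (28.0% of all), with a median of 0.13 against 0.02. Ibrutinib alone raised 5 (4.98% of all) and lowered 0 (7.46% of all), with a median of 0.01 against -0.01; at an unadjusted p under 0.05 limma had 1 gene lower, and limma-voom also called 0 lower. In Sem, 7 of 30 genes were higher with the combination (26.6% of all 13417 genes) and 8 lower (26.2% of all), with medians of -0.00 against 0.02. Ibrutinib alone raised 8 (20.3% of all) and lowered 8 (21.3% of all), with medians of -0.03 against 0.01, and asparaginase alone raised 1 (11.4% of all) and lowered 7 (15.1% of all), with medians of -0.03 against -0.00. For the combination and for ibrutinib, the Sem shares lay close to those of all genes in both directions.

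These splits moved with the scaling. When the same values were rescaled to TPM, the median of all genes shifted by 0.14 for the combination and by 0.12 for asparaginase in Nalm6, and the calls became 22 higher and 2 lower for the combination (42.3% and 23% of all genes) and 14 higher and 3 lower for asparaginase (38.5% and 19.2% of all), so that all genes shifted the same way. In Sem they became 10 higher and 7 lower for the combination (34.3% and 20.2% of all), 10 higher and 6 lower for ibrutinib (29% and 15.1% of all), and 3 higher and 2 lower for asparaginase (19.8% and 8.57% of all). Quantile normalization of the Sem ibrutinib comparison gave 6 higher and 10 lower. No gene called in any of the 16 comparisons changed sign under any alternative run.

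**Figure D2:**
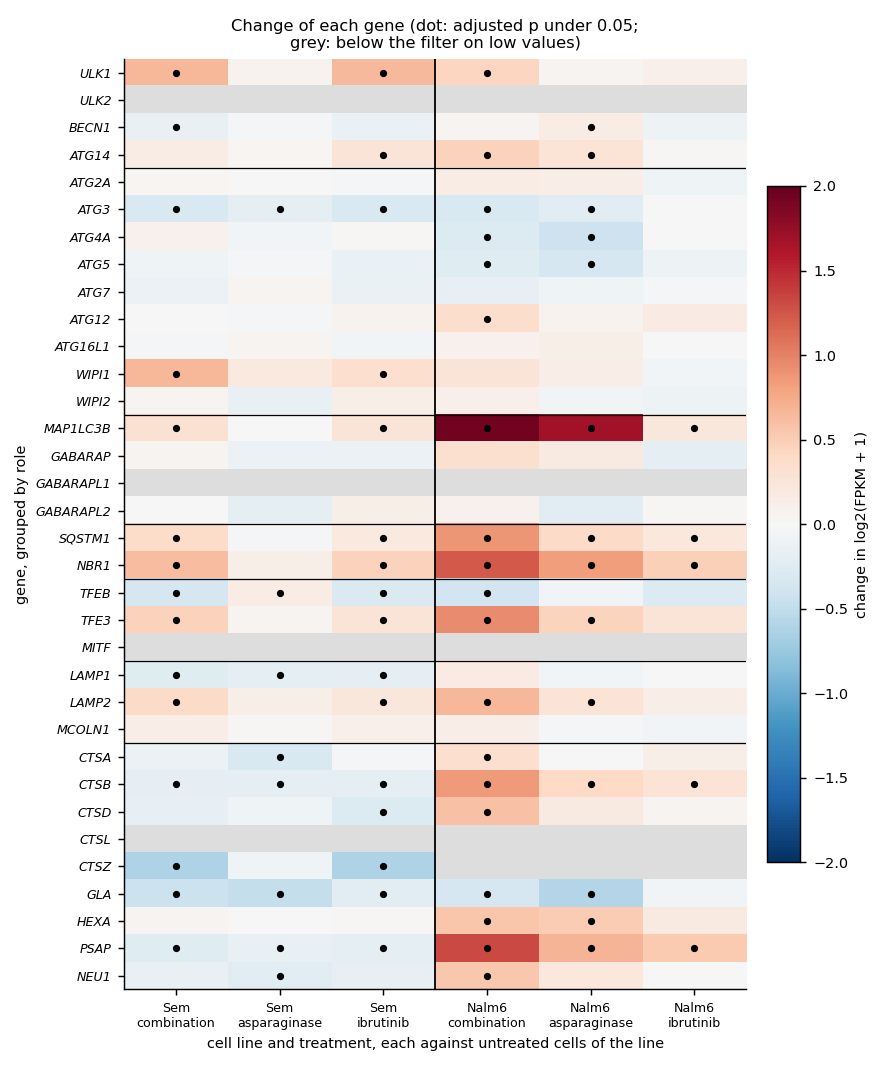
Change of each gene in log2(FPKM + 1), as colour from -2 (blue) to 2 (red), for the combination, asparaginase and ibrutinib, each against untreated cells, in Sem (left 3 columns) and Nalm6 (right 3 columns). Black dots mark adjusted p under 0.05 by limma and grey cells are genes below the filter; MAP1LC3B at 1.93 and 1.68 and PSAP at 1.32 are the deepest red cells, all in Nalm6, and CTSZ at -0.61 is the deepest blue in Sem.

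Among the genes that start the autophagosome, ULK1 was higher in Sem wherever ibrutinib was given. ULK1, the kinase that receives the AMPK and mTORC1 signals, was at 20, 20 and 18.5 FPKM in Sem combination libraries and at 11.8, 14.1 and 11.7 FPKM in Sem asparaginase libraries. It was at 19.0, 19.8 and 19.1 FPKM in Sem ibrutinib libraries, against 12.2, 12.2 and 11.3 FPKM in untreated ones. All 6 libraries that had received ibrutinib lay above all 6 that had not. The change was 0.67 (SE 0.064, limma adjusted p = 7e-06) for the combination and 0.65 (SE 0.064, adjusted p = 2e-05) for ibrutinib, 1.64 and 1.62 times the untreated mean, and 0.07 (adjusted p = 0.48) for asparaginase. In Nalm6, ULK1 rose with the combination, at 5.36 ± 0.882 FPKM against 3.71 ± 0.372 FPKM in untreated cells (change 0.43, adjusted p = 0.0037), where combination 1 lay lowest of its group at 4.34 FPKM.

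ATG14, which directs the lipid kinase to sites of autophagosome formation, rose in Nalm6 with the combination (4.48 ± 0.267 FPKM, against 2.98 ± 0.326 FPKM in untreated cells, change 0.46, adjusted p = 0.00011) and with asparaginase (change 0.28, adjusted p = 0.0047; 0.13 and adjusted p = 0.125 with quantile normalization). In Sem it passed with ibrutinib (change 0.26, adjusted p = 0.02), a call lost without the libraries that stood apart (adjusted p = 0.104). BECN1, the scaffold of the lipid kinase complex, had small changes: 0.15 with asparaginase in Nalm6 (adjusted p = 0.039) and -0.15 with the combination in Sem (adjusted p = 0.032), and both calls were lost without the libraries that stood apart (adjusted p = 0.0585 and 0.128). PSME3 lies on the opposite strand of BECN1 and averaged 24.8 ± 1.44 FPKM in Nalm6 combination cells, against 56.4 ± 3.21 FPKM in untreated ones; whether the counting used strand is not given in the sources used here. Of the 34 genes, 12 overlapped an opposite-strand gene that reached 1 FPKM.

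Of the 9 membrane and conjugation genes, 1 rose and 3 fell with the combination in Nalm6 (32.4% and 31.3% of all genes). The Nalm6 falls were thus near the share of all genes. In Sem 1 rose and 1 fell (26.6% and 26.2% of all). ATG3, the E2-like enzyme that hands LC3 to its lipid, was lower with the combination in both lines: 12.7 ± 0.417 FPKM in Sem combination cells against 15.8 ± 0.24 FPKM in untreated ones (change -0.30, adjusted p = 0.00039), and 15.7 ± 1.72 FPKM in Nalm6 combination cells against 19.6 ± 1.91 FPKM in untreated ones (change -0.30, adjusted p = 0.0091). In Nalm6, ATG4A, the protease that primes LC3-family proteins, fell with asparaginase (change -0.41, adjusted p = 0.00097) and the combination (-0.27, adjusted p = 0.0097). ATG5, the conjugation partner of ATG12, fell there likewise by 0.34 (adjusted p = 0.0016) and 0.24 (adjusted p = 0.01). With TPM values the combination calls of ATG3, ATG4A and ATG5 in Nalm6 were lost (adjusted p = 0.174, 0.173 and 0.27), as were those with limma-voom. ATG12, the ubiquitin-like partner itself, rose in Nalm6 with the combination, to 9.44 ± 0.439 FPKM against 7.20 ± 0.356 FPKM in untreated cells (change 0.35, adjusted p = 0.00029).

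WIPI1 was at 2.96, 2.19 and 2.51 FPKM in Sem combination libraries and at 1.56, 1.57 and 1.56 FPKM in asparaginase libraries. It was at 1.48, 2.18 and 1.87 FPKM in Sem ibrutinib libraries, against 1.26, 1.45 and 1.04 FPKM in untreated ones. The combination libraries were above every untreated and asparaginase library, and the lowest ibrutinib library nearly met the highest untreated one. The change was 0.66 with the combination (SE 0.11, adjusted p = 0.00049) and 0.33 with ibrutinib (SE 0.11, adjusted p = 0.033), the second lost without Sem ibrutinib 2 (adjusted p = 0.126) and under several other omissions. ATG2A, the lipid transfer protein, ATG7, the E1-like enzyme, ATG16L1, the scaffold that sets the site of lipidation, and WIPI2 passed in no comparison with untreated cells, with changes between -0.17 and 0.15.

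MAP1LC3B, the LC3 protein used as the standard marker of autophagosomes, had the largest change with treatment among the 34 genes, in Nalm6 with asparaginase present. In Nalm6 it was at 57.5 FPKM in each of the 3 combination libraries and at 45.0, 51.2 and 48.5 FPKM in asparaginase libraries. It was at 17.7, 16.8 and 16.5 FPKM in ibrutinib libraries, against 14.3, 14.7 and 14.2 FPKM in untreated ones. The 4 Nalm6 groups did not overlap. The combination mean was 4.0 times and the asparaginase mean 3.35 times the untreated mean, with changes of 1.93 (SE 0.048, limma adjusted p = 5.4e-10) and 1.68 (SE 0.048, adjusted p = 2.1e-09). Ibrutinib alone gave 0.23 (adjusted p = 0.014), lost without untreated 3 (adjusted p = 0.0578) or ibrutinib 1 (adjusted p = 0.0589). In Sem the gene stood at 17.0 ± 1.51 FPKM with the combination, 13.6 ± 0.662 FPKM with asparaginase, 16.5 ± 0.655 FPKM with ibrutinib and 13.6 ± 1.38 FPKM untreated (n = 3 each). There it rose with the combination (0.30, adjusted p = 0.0056) and with ibrutinib (0.26, adjusted p = 0.014), and the asparaginase change was 0.00 (SE 0.074). The Sem ibrutinib call was lost without untreated 1 (adjusted p = 0.0584), ibrutinib 3 (adjusted p = 0.0538) or the libraries that stood apart (adjusted p = 0.0684).

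The remaining tested members of the family passed in no comparison with untreated cells. GABARAP averaged 7.81 ± 1.35 FPKM in Nalm6 combination cells and 6.02 ± 0.516 FPKM in untreated ones (change 0.32, adjusted p = 0.084), and the GABARAPL2 change was 0.09 (adjusted p = 0.46). The near-identical gene MAP1LC3B2 stayed at or under 0.433 FPKM on average in every group, with 9 to 41 reads summed over the 3 libraries of a group. FBXO31, on the strand opposite MAP1LC3B, was at 9.94 ± 1.12 FPKM in combination, 11.8 ± 1.22 FPKM in asparaginase, 6.73 ± 0.314 FPKM in ibrutinib and 7.47 ± 0.0928 FPKM in untreated Nalm6 cells, and its part in the MAP1LC3B count was not tested.

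**Figure D3:**
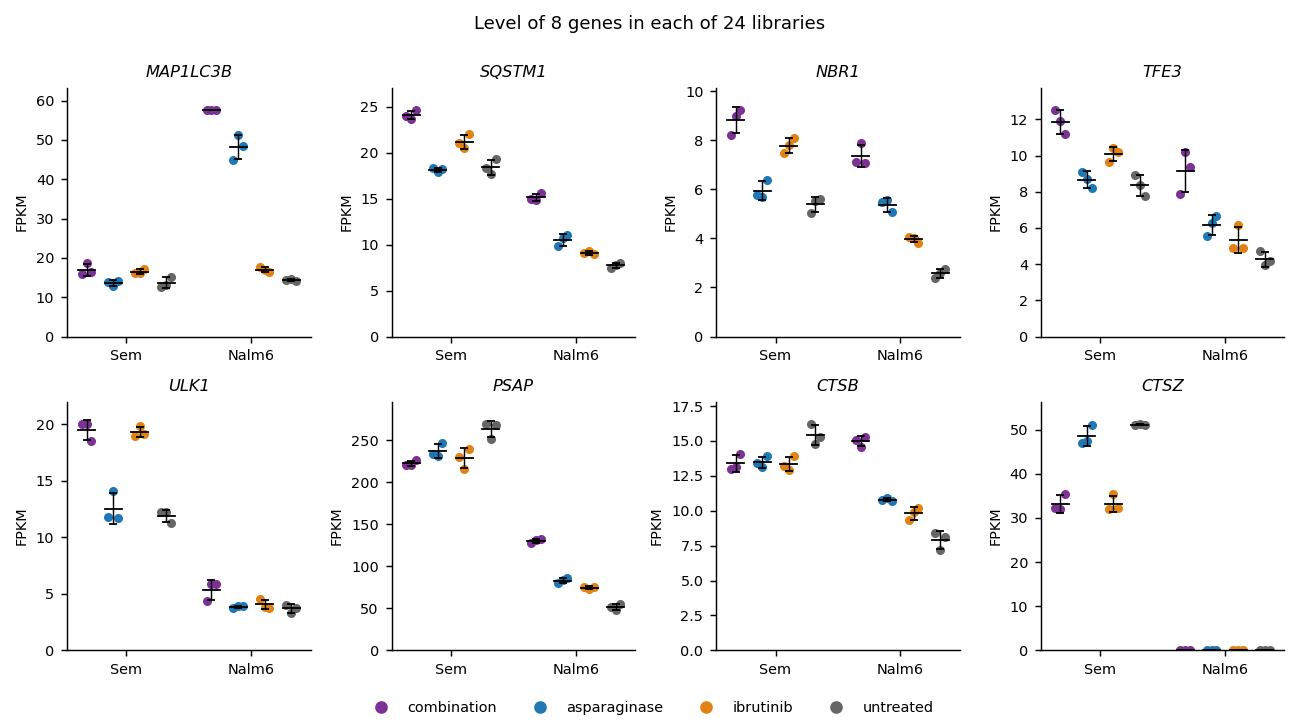
FPKM of 8 genes in every library, in Sem (left of each panel) and Nalm6 (right), for combination, asparaginase, ibrutinib and untreated cells in that order; points are libraries, lines are means and bars are SD (n = 3). MAP1LC3B reaches 18.7 FPKM at most in Sem and 57.5 FPKM in Nalm6 combination libraries, PSAP lies between 216 and 269 FPKM in Sem and reaches 132 FPKM in Nalm6, and CTSZ is near 0 in Nalm6.

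Both cargo receptors rose with the combination in both lines. NBR1, which carries ubiquitinated cargo to LC3, was at 7.11, 7.90 and 7.09 FPKM in Nalm6 combination libraries and at 5.48, 5.56 and 5.06 FPKM in asparaginase libraries. It was at 4.07, 4.02 and 3.83 FPKM in Nalm6 ibrutinib libraries, against 2.40, 2.60 and 2.76 FPKM in untreated ones. The 4 groups did not overlap, and the combination mean was 2.85 times the untreated mean (change 1.22, SE 0.061, limma adjusted p = 2.8e-08). Asparaginase gave 0.83 (adjusted p = 9.8e-07) and ibrutinib 0.47 (adjusted p = 0.001). In Sem NBR1 was at 8.22, 9.0 and 9.22 FPKM in combination libraries and at 5.76, 5.69 and 6.38 FPKM in asparaginase libraries. It was at 7.48, 7.80 and 8.08 FPKM in Sem ibrutinib libraries, against 5.05, 5.52 and 5.61 FPKM in untreated ones. All libraries with ibrutinib lay above all without it, and the changes were 0.62 for the combination (SE 0.058, adjusted p = 5.8e-06), 0.46 for ibrutinib (adjusted p = 0.0001) and 0.12 for asparaginase (adjusted p = 0.16). AC060780.1, a noncoding gene on the strand opposite NBR1, averaged 3.24 ± 0.0561 FPKM in Nalm6 combination cells and 1.41 ± 0.132 FPKM in untreated ones; whether the 2 genes share reads was not tested.

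SQSTM1, or p62, which is itself consumed with the cargo it binds, was at 15, 14.8 and 15.6 FPKM in Nalm6 combination libraries and at 9.80, 10.7 and 11 FPKM in asparaginase libraries. It was at 9.04, 9.30 and 8.95 FPKM in Nalm6 ibrutinib libraries, against 7.45, 7.80 and 7.99 FPKM in untreated ones. Again the 4 groups did not overlap, and the changes were 0.88 (SE 0.049, adjusted p = 6.1e-08), 0.39 (adjusted p = 5.3e-05) and 0.21 (adjusted p = 0.021) for combination, asparaginase and ibrutinib. The ibrutinib call was lost when untreated 1 or any 1 of the 3 ibrutinib libraries was left out (adjusted p = 0.0738 without untreated 1). In Sem it averaged 24.1 ± 0.461 FPKM with the combination, 18.1 ± 0.219 FPKM with asparaginase, 21.2 ± 0.768 FPKM with ibrutinib and 18.4 ± 0.826 FPKM untreated, and it rose with the combination (0.37, adjusted p = 1.5e-05) and ibrutinib (0.19, adjusted p = 0.0025). MRNIP, an opposite-strand neighbour, averaged 8.26 ± 0.416 FPKM in Nalm6 combination cells and 5.19 ± 0.26 FPKM in untreated ones, and its part in the SQSTM1 count was not tested.

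TFE3 and TFEB, related factors that bind the same E-box, went in opposite directions with the combination. TFE3 was at 7.89, 10.2 and 9.35 FPKM in Nalm6 combination libraries and at 5.58, 6.25 and 6.64 FPKM in asparaginase libraries. It was at 4.90, 6.16 and 4.90 FPKM in Nalm6 ibrutinib libraries, against 4.73, 3.93 and 4.17 FPKM in untreated ones. Every combination library lay above every other Nalm6 library, and the change was 0.94 with the combination (SE 0.11, adjusted p = 1.5e-05) and 0.44 with asparaginase (adjusted p = 0.0042). The ibrutinib change of 0.26 did not pass in Nalm6 (adjusted p = 0.14). In Sem TFE3 averaged 11.9 ± 0.67 FPKM with the combination, 8.67 ± 0.457 FPKM with asparaginase, 10.1 ± 0.397 FPKM with ibrutinib and 8.36 ± 0.589 FPKM untreated, and it rose with the combination (0.46, adjusted p = 6.2e-05) and ibrutinib (0.25, adjusted p = 0.0062). TFEB fell with the combination in both lines, to 7.39 ± 0.244 FPKM in Sem combination cells against 9.52 ± 0.377 FPKM in untreated ones (change -0.33, adjusted p = 5.6e-05), and to 2.93 ± 0.571 FPKM in Nalm6 combination cells against 4.10 ± 0.244 FPKM in untreated ones (change -0.38, adjusted p = 0.0052). Ibrutinib alone lowered it in Sem (change -0.29, adjusted p = 0.00023), while in Nalm6 the change of -0.28 did not pass (adjusted p = 0.086). Asparaginase alone raised TFEB in Sem, to 10.6 ± 0.151 FPKM against 9.52 ± 0.377 FPKM in untreated cells (change 0.15, adjusted p = 0.022), a call lost without the libraries that stood apart (adjusted p = 0.0577) and under several single omissions.

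Of the lysosomal membrane genes, LAMP2 rose and LAMP1 did not. LAMP2, whose isoforms serve vesicle fusion and chaperone-mediated autophagy, was at 30.5, 27.3 and 28.0 FPKM in Nalm6 combination libraries and at 22.1, 22.3 and 20.9 FPKM in asparaginase libraries. It was at 19.5, 19.8 and 19.6 FPKM in Nalm6 ibrutinib libraries, against 17.6, 17.8 and 17.8 FPKM in untreated ones. The groups did not overlap, with changes of 0.66 for the combination (SE 0.046, adjusted p = 3.8e-07) and 0.28 for asparaginase (adjusted p = 0.00041), whereas the 0.14 for ibrutinib missed the threshold (adjusted p = 0.075). In Sem LAMP2 rose to 24.7 ± 0.484 FPKM with the combination and 22.2 ± 1.05 FPKM with ibrutinib, against 18.8 ± 1.44 FPKM in untreated cells (changes 0.38 and 0.23, adjusted p = 0.00011 and 0.0049). LAMP1, the other main glycoprotein of the lysosomal membrane, fell in Sem with the combination, to 15.9 ± 0.387 FPKM against 19.1 ± 0.551 FPKM in untreated cells (change -0.25, adjusted p = 0.00032). In Nalm6 it averaged 24.2 ± 3.21 FPKM in combination cells and 21.2 ± 1.70 FPKM in untreated ones (adjusted p = 0.14), with combination 1 at 20.5 FPKM and the other combination libraries at 26.1 and 25.9 FPKM. MCOLN1, the calcium channel TRPML1, passed in neither line.

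Among the hydrolases and their cofactors, 6 of 7 tested rose and GLA fell with the combination in Nalm6, where 32.4% of all genes rose and 31.3% fell. In Sem CTSZ, GLA, PSAP and CTSB fell and the other 4 did not pass, where 26.6% of all genes rose and 26.2% fell. PSAP was at 128, 131 and 132 FPKM in Nalm6 combination libraries and at 80.0, 83.3 and 85.6 FPKM in asparaginase libraries. It was at 75.8, 73.1 and 75.4 FPKM in Nalm6 ibrutinib libraries, against 51.5, 48.2 and 55.0 FPKM in untreated ones. No groups overlapped, and the combination mean was 2.53 times the untreated mean (change 1.32, SE 0.05, limma adjusted p = 4.5e-09). Asparaginase gave 0.68 (adjusted p = 1.1e-06) and ibrutinib 0.53 (adjusted p = 0.00019). In Sem, PSAP fell to 223 ± 3.01 FPKM with the combination, 238 ± 8.29 FPKM with asparaginase and 229 ± 11.9 FPKM with ibrutinib, against 263 ± 9.97 FPKM in untreated cells, with changes of -0.24, -0.15 and -0.20 (adjusted p = 0.00098, 0.034 and 0.0043). The Sem asparaginase call was lost in 8 of 15 alternatives, among them TPM values (adjusted p = 0.275) and quantile normalization (change -0.02, adjusted p = 0.631), and the Sem ibrutinib call with quantile normalization (adjusted p = 0.0964).

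CTSB, the cysteine protease cathepsin B, was at 15.1, 14.6 and 15.3 FPKM in Nalm6 combination libraries and at 10.8, 10.9 and 10.7 FPKM in asparaginase libraries. It was at 9.33, 9.91 and 10.2 FPKM in Nalm6 ibrutinib libraries, against 8.42, 7.21 and 8.11 FPKM in untreated ones. The groups were separate, with changes of 0.85 (SE 0.055, adjusted p = 2.1e-07), 0.40 (adjusted p = 0.0001) and 0.28 (adjusted p = 0.0098) for combination, asparaginase and ibrutinib. In Sem it fell under all 3 treatments, to 13.4 ± 0.573 FPKM with the combination against 15.5 ± 0.695 FPKM in untreated cells (change -0.19, adjusted p = 0.0043). The Sem asparaginase call was lost with TPM values (adjusted p = 0.0815).

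CTSZ, which Nalm6 barely expressed, was lowered by ibrutinib in Sem. It was at 32.2, 31.9 and 35.5 FPKM in Sem combination libraries and at 47.0, 47.5 and 51.1 FPKM in asparaginase libraries. It was at 32.0, 35.3 and 32.2 FPKM in Sem ibrutinib libraries, against 51.0, 51.2 and 51.1 FPKM in untreated ones. All 6 libraries with ibrutinib lay below all 6 without it, at 0.649 times the untreated mean in both cases (change -0.61 with each, SE 0.051, adjusted p = 2.7e-06 for the combination and 6.8e-06 for ibrutinib), and the asparaginase change of -0.07 did not pass (adjusted p = 0.33).

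HEXA, the alpha subunit of beta-hexosaminidase, was at 2.98, 3.20 and 3.24 FPKM in Nalm6 combination libraries and at 3.08, 2.90 and 3.08 FPKM in asparaginase libraries. It was at 2.14, 2.38 and 2.05 FPKM in Nalm6 ibrutinib libraries, against 1.96, 1.86 and 1.65 FPKM in untreated ones. Libraries with asparaginase, alone or combined, lay above all without it, and the changes were 0.55 for the combination (SE 0.067, adjusted p = 2.8e-05) and 0.51 for asparaginase (adjusted p = 7.8e-05). AC009690.2, on the opposite strand, averaged 1.09 ± 0.194 FPKM in combination and 0.426 ± 0.192 FPKM in untreated Nalm6 cells, and its part in the HEXA count was not tested. In Sem HEXA averaged between 2.92 and 3.08 FPKM in all 4 groups and did not pass.

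CTSD and NEU1 passed in Nalm6 with the combination alone. CTSD, the aspartic protease cathepsin D, was at 6.62, 8.56 and 7.62 FPKM in Nalm6 combination libraries and at 4.81, 5.55 and 6.10 FPKM in asparaginase libraries. It was at 5.01, 4.98 and 4.83 FPKM in Nalm6 ibrutinib libraries, against 5.75, 3.83 and 4.70 FPKM in untreated ones, so that the combination group stood above all others, which overlapped (change 0.59, SE 0.12, adjusted p = 0.0014). NEU1, the sialidase that works in a complex with CTSA, was at 7.33, 7.72 and 8.89 FPKM in Nalm6 combination libraries and at 5.51, 6.45 and 6.50 FPKM in asparaginase libraries. It was at 5.20, 5.12 and 5.01 FPKM in Nalm6 ibrutinib libraries, against 5.07, 4.49 and 6.02 FPKM in untreated ones. Here too the combination libraries were the highest (change 0.54, SE 0.095, adjusted p = 0.00045). CTSA, its partner, rose with the combination in Nalm6, to 12.8 ± 0.888 FPKM against 9.94 ± 1.08 FPKM in untreated cells (change 0.34, adjusted p = 0.0028). In Sem, asparaginase alone lowered CTSA (change -0.30, adjusted p = 0.00087) and NEU1 (change -0.22, adjusted p = 0.028, lost in 8 of 15 alternatives with an adjusted p of up to 0.106), and ibrutinib alone lowered CTSD (change -0.28, adjusted p = 0.008, lost with the correction for GC content and length at adjusted p = 0.106).

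GLA, the alpha-galactosidase whose loss causes Fabry disease, fell with asparaginase in both lines. It was at 14.3, 13.0 and 13.9 FPKM in Nalm6 combination libraries and at 11.1, 11.1 and 12.2 FPKM in asparaginase libraries. It was at 17.2, 16.1 and 17.3 FPKM in Nalm6 ibrutinib libraries, against 17.4, 17.3 and 18.2 FPKM in untreated ones. Libraries with asparaginase lay below all without it, lowest with asparaginase alone, and the changes were -0.34 for the combination (SE 0.053, adjusted p = 0.00018) and -0.58 for asparaginase (SE 0.053, adjusted p = 5.1e-06). In Sem GLA averaged 11.6 ± 0.336 FPKM with the combination, 11.2 ± 0.814 FPKM with asparaginase, 13.7 ± 0.573 FPKM with ibrutinib and 16 ± 0.257 FPKM untreated, with changes of -0.43 (adjusted p = 2.8e-05), -0.48 (adjusted p = 5.7e-05) and -0.21 (adjusted p = 0.0059). The Sem ibrutinib call was lost with TPM values (adjusted p = 0.0539).

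Adding ibrutinib to asparaginase raised the set in Nalm6. Against asparaginase alone, the combination raised 13 of 29 genes there (9.79% of all tested genes rose) and lowered 1, TFEB (12% of all fell). The largest rises were those of PSAP (0.65, SE 0.05, adjusted p = 1.8e-05), TFE3 (0.50, SE 0.11, adjusted p = 0.0067), SQSTM1 (0.49, SE 0.049, adjusted p = 7.2e-05) and CTSB (0.44, SE 0.055, adjusted p = 0.00032). In Sem the same comparison gave 9 of 30 higher (18.6% of all) and 2 lower, CTSZ and TFEB (19.8% of all), with ULK1 at 0.60 (SE 0.064, adjusted p = 3.1e-05) and NBR1 at 0.50 (SE 0.058, adjusted p = 5.6e-05) in front. The Nalm6 calls of TFEB, CTSD, NEU1 and ULK1 were lost under single omissions, TFEB without combination 1 (adjusted p = 0.105). With the replicate number as a block, the CTSD call was lost too (change 0.40, adjusted p = 0.0626).

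Adding asparaginase to ibrutinib gave more calls in Nalm6 than in Sem, in this set and over all genes. The difference between the lines in this comparison was not tested. Against ibrutinib alone, the combination raised 18 of 29 genes in Nalm6 (29.5% of all) and lowered 3 (27.6% of all), led by MAP1LC3B at 1.70 (SE 0.048, adjusted p = 2.7e-09), PSAP at 0.80 (SE 0.05, adjusted p = 3.1e-07) and NBR1 at 0.75 (SE 0.061, adjusted p = 2e-06). In Sem it raised 2 of 30, SQSTM1 and TFE3 (4.81% of all), and lowered 1, GLA (7.29% of all), with changes of 0.18, 0.21 and -0.22 (adjusted p = 0.014, 0.038 and 0.015). Without Sem ibrutinib 2 none of these 3 passed (adjusted p = 0.0566, 0.0639 and 0.061), and without combination 1 or combination 2 of Sem, 1 gene passed. These comparisons share their combination libraries with those against untreated cells.

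The change with both drugs was set against the sum of the changes with each drug alone. In Nalm6, 2 of 29 genes lay above the sum (2.99% of all did), SQSTM1 by 0.29 (SE 0.069, limma adjusted p = 0.038) and GLA by 0.30 (SE 0.075, adjusted p = 0.044). GLA fell with asparaginase and with the combination, so its fall with both drugs was smaller than the sum of the single changes. Below the sum were 0 genes (2.58% of all). At an unadjusted p under 0.05 limma had 5 above and 0 below, and limma-voom called 0 in either direction. Leaving out most single libraries of Nalm6 removed 1 or both calls, and without the 3 that stood apart 6 other genes were called above the sum and both SQSTM1 and GLA were lost. In Sem, 0 of 30 were above (0.76% of all) and 0 below the sum (0.768% of all) by limma, with 7 above and 1 below at an unadjusted p under 0.05 and 0 by limma-voom. MAP1LC3B and PSAP did not pass this test in either line.

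Comparing the lines directly, the signed combination change was lower in Sem for 16 of 30 genes (18.6% of all 15116 were lower). It was higher for 2, ATG4A and WIPI1 (22.2% of all were higher). Lower does not mean smaller here: LAMP1 and BECN1, among the 16, fell in Sem and did not pass in Nalm6. ATG4A fell in Nalm6 and did not pass in Sem. The WIPI1 call was lost in 14 of 21 alternatives (adjusted p up to 0.128), and the BECN1 call, among the 16, in 10 of 21 (up to 0.135). The Sem minus Nalm6 difference in change was -1.63 for MAP1LC3B (SE 0.09, limma adjusted p = 7.7e-11), -1.56 for PSAP (SE 0.066, adjusted p = 1.8e-12) and -1.04 for CTSB (SE 0.069, adjusted p = 8e-10). For the asparaginase change 9 genes were lower in Sem (15.8% of all) and 2 higher, ATG5 and ATG4A (17.7% of all), with MAP1LC3B at -1.67 (SE 0.09, adjusted p = 1.4e-10) and NBR1 at -0.71 (SE 0.08, adjusted p = 1.8e-06). For the ibrutinib change 3 were lower in Sem (6.09% of all), PSAP at -0.73 (SE 0.066, adjusted p = 2.5e-07), CTSZ at -0.64 and CTSB at -0.48 (SE 0.069, adjusted p = 8.3e-05), and 1 was higher, ULK1 at 0.55 (SE 0.12, adjusted p = 0.0055; 7.56% of all). CTSZ could not fall in Nalm6, where it had 4 reads at most in any library, and its differences were lost with a pseudocount of 0.1 (adjusted p = 0.117 for ibrutinib and 0.0829 for the combination).

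With the combination, 6 of the 29 genes tested in both lines were higher in both (17.2% of all 11741 genes tested in both were), namely MAP1LC3B, SQSTM1, NBR1, ULK1, TFE3 and LAMP2, and 3 were lower in both, ATG3, TFEB and GLA (20.7% of all). CTSB and PSAP rose in Nalm6 and fell in Sem under each of the 3 treatments, of which the Sem asparaginase falls were lost with TPM values (adjusted p = 0.0815 for CTSB and 0.275 for PSAP). The Sem ibrutinib fall of PSAP was lost with quantile normalization (limma adjusted p = 0.0964). Of all genes tested in both lines, 3.99% were called in opposite directions with the combination, 1.41% with asparaginase and 0.886% with ibrutinib. The 2 lines share no control libraries.

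**Figure D4:**
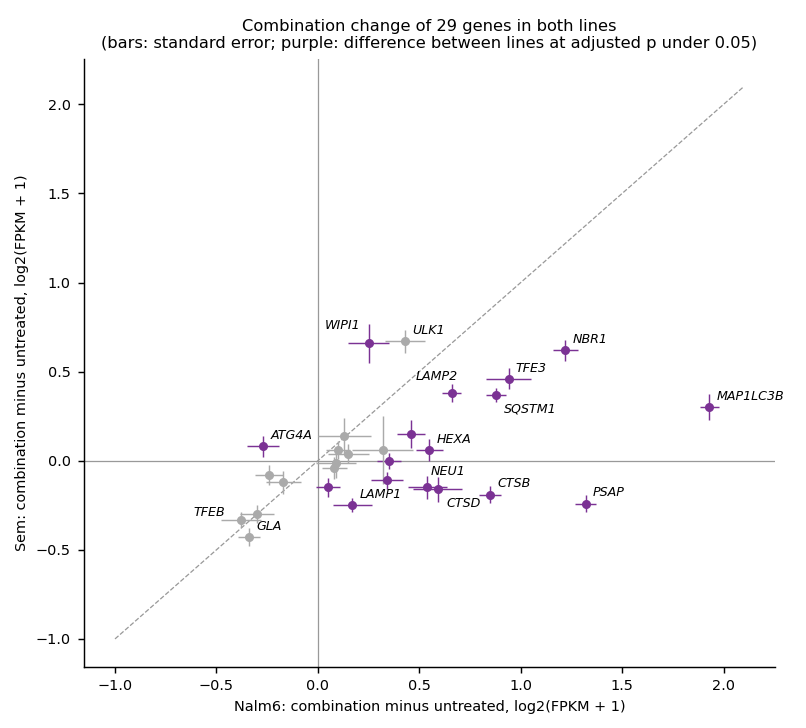
Change with the combination against untreated cells in log2(FPKM + 1), in Nalm6 (horizontal) and Sem (vertical), for the 29 genes tested in both; bars are standard errors, the dashed line marks equal change, and purple marks a difference between the lines at adjusted p under 0.05. MAP1LC3B lies at 0.30 in Sem and 1.93 in Nalm6, PSAP at -0.24 in Sem and 1.32 in Nalm6, and TFEB, GLA and ULK1 lie near the line.

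A wider list of 139 further autophagy and lysosome genes, grouped by role, was counted in the same comparisons. With the combination, 67 of 122 tested genes were higher and 20 lower in Nalm6 (32.4% and 31.3% of all genes), and 48 of 125 higher and 16 lower in Sem (26.6% and 26.2% of all), with medians of 0.23 in Nalm6 and 0.06 in Sem against 0.02 over all genes in each. Asparaginase alone gave 48 higher and 21 lower in Nalm6 (28.2% and 28.0% of all), which TPM values made 69 and 12. In Sem it gave 17 higher and 22 lower, near the shares of all genes (11.4% and 15.1%), and that balance turned to 37 higher and 11 lower with TPM values and to 32 and 18 with limma-voom. Ibrutinib alone gave 8 higher and 2 lower in Nalm6 (4.98% and 7.46% of all; 15 and 1 with TPM values) and 42 higher and 14 lower in Sem (20.3% and 21.3% of all; 56 and 7 with TPM values). Cargo receptors were higher in 9 of 11 and lower in 1 in Nalm6 with the combination, and higher in 5 of 11 in Sem. Among them OPTN, a receptor for damaged mitochondria and bacteria, averaged 32.2 ± 2.24 FPKM in Nalm6 combination cells and 9.08 ± 0.361 FPKM in untreated ones (change 1.72, SE 0.057, limma adjusted p = 1.9e-09), and CCPG1, a receptor for the endoplasmic reticulum, 3.31 ± 0.74 FPKM in combination cells and 0.457 ± 0.0807 FPKM in untreated ones (change 1.55, adjusted p = 9.1e-07). Of the called genes of the list, CCPG1 also changed most with asparaginase in both lines, by 1.32 in Nalm6 (adjusted p = 5.8e-06) and 0.81 in Sem (adjusted p = 1.3e-05). It met the filter in both lines only through libraries given asparaginase, alone or combined, so its rank is not independent of that filter. Untreated and ibrutinib libraries reached at most 0.547 and 0.916 FPKM in Nalm6, and 0.927 and 1.01 FPKM in Sem.

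Of the hydrolases of the wider list, with the combination 20 of 29 were higher and 4 lower in Nalm6 (32.4% and 31.3% of all genes), and 18 of 32 higher and 2 lower in Sem (26.6% and 26.2% of all). CTSO, a cysteine cathepsin, averaged 7.72 ± 0.772 FPKM in Sem combination cells against 3.60 ± 0.444 FPKM in untreated ones, and 6.03 ± 0.615 FPKM in Nalm6 combination cells against 1.27 ± 0.0979 FPKM in untreated ones (changes 0.92 and 1.63, adjusted p = 2.5e-06 and 2.5e-08). In Sem it stood first with ibrutinib alone too, at 7.85 ± 0.206 FPKM (change 0.95, adjusted p = 5.1e-06). HGSNAT, CTSF and IDUA, which act on heparan sulfate, proteins and dermatan sulfate, also rose in Sem with ibrutinib, by 0.68, 0.61 and 0.66 (adjusted p = 1.5e-05, 0.0028 and 1.4e-05). CTSF was low there, at 0.299 ± 0.0362 FPKM untreated (42 reads in all) and 0.999 ± 0.267 FPKM with ibrutinib. It met the filter in Sem only through libraries given ibrutinib, chiefly those of the combination. AGA, the lysosomal aspartylglucosaminidase, was at 11.7 ± 0.584 FPKM in Sem combination cells and at 6.25 ± 0.101 FPKM in untreated ones (change 0.80, adjusted p = 2.2e-07). Of the V-ATPase genes, which encode the proton pump of the lysosome, 4 of 16 were higher and 6 lower with the combination in Nalm6, near the shares of all genes (32.4% and 31.3%), and 1 of 16 was higher and 7 lower in Sem (26.6% and 26.2% of all). WDR45, a relative of the WIPI proteins, and FNIP1, a partner of the folliculin complex that restrains TFEB and TFE3, rose in Nalm6 with the combination by 1.28 and 1.21 (adjusted p = 4.7e-08 and 5.7e-07).

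**Figure D5:**
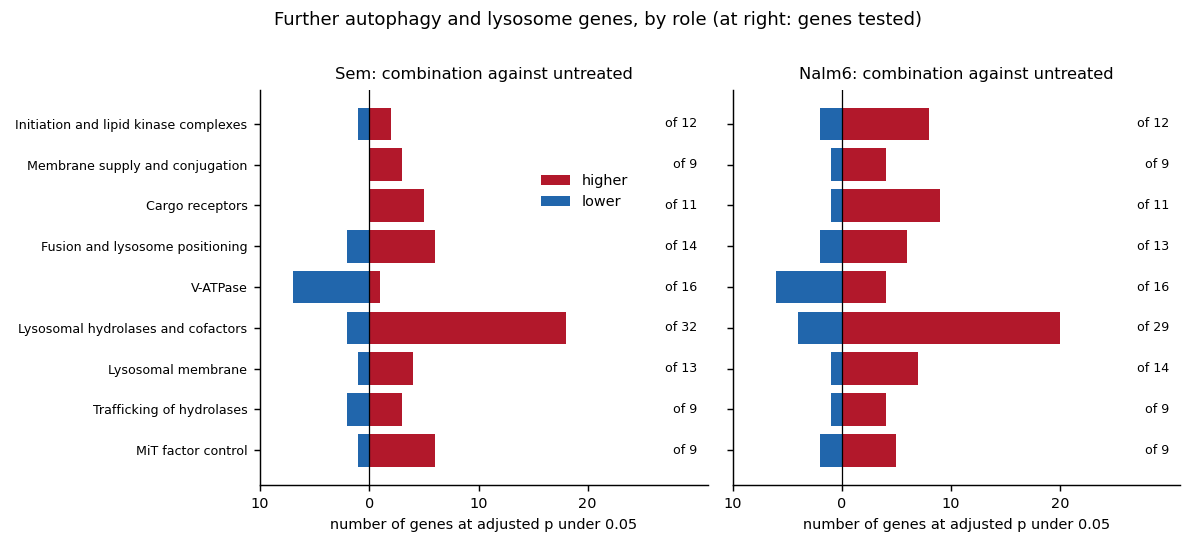
Number of further autophagy and lysosome genes, by role, that were higher (red, to the right) or lower (blue, to the left) with the combination than in untreated cells at adjusted p under 0.05, in Sem (left panel) and Nalm6 (right panel), with the number tested at the right edge. Higher calls reach 5 of 11 cargo receptors in Sem and 9 of 11 in Nalm6, and 18 of 32 hydrolases in Sem and 20 of 29 in Nalm6, and V-ATPase genes have 1 higher and 7 lower calls in Sem and 4 higher and 6 lower in Nalm6.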

How the data were processed

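RNA from 24 samples of the cell lines Sem and Nalm6 was sequenced, with 3 libraries in each of 8 groups. Per the submitters' processing notes, fastp, STAR and featureCounts were used with hg38; their versions and the strand setting are not given in the sources used here. The authors deposited 1 table of FPKM for 58735 genes, in which values of 1 or more had lost their decimal point, so these deposited values fit no standard unit, are treated as other values rather than a score, and were restored before use. An FPKM value times gene length is a whole number of reads times a library constant. Each of the 299165 damaged values (21.2% of 1409640) was therefore given a power of 10 that yielded whole reads. Among such powers, the choice favoured similar replicates, small drug effects and a small departure from the sum of both drugs. A posterior under 0.99 was left for 684 restored values, none of them of the 34 genes. This step could narrow the spread of such doubtful values and make their drug effects and departures from the sum smaller.

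Tests used limma 3.58.1 (limma-trend) in R 4.3.3 on log2(FPKM + 1), with a pseudocount of 1, for genes that reached an FPKM of 1 in 3 or more libraries, and Benjamini-Hochberg adjustment over all genes tested, calls being made at an adjusted p under 0.05. Each line was fitted on its 12 libraries, and differences between the lines on all 24. Fold changes on this scale understate changes of low genes. Libraries held 15032809 to 18135579 recovered reads, which sets the counting error of the low genes. Count models made for raw counts were not used as the main test, since the deposited values were not counts; limma-voom on the recovered reads was an alternative. Further alternatives were a pseudocount of 0.1, no filter, TPM rescaling, quantile normalization, a replicate block, 1 fit for both lines and leaving out each library; leaving out the libraries that stood apart and a correction for GC content and length were chosen after seeing the data. For the combination against asparaginase in Nalm6, deviations of same-numbered libraries correlated at 0.371, 0.106 and 0.18, each over 0.1. By this cut of 0.1 on each value, the numbers were read as possible pairs there and in no other pair of groups. Libraries 2 and 3 of these groups correlated as much across numbers (0.11 and 0.108), and both libraries numbered 1 stood apart. These values thus do not settle whether the numbers are pairs. In Sem the values were smaller, but same-numbered libraries had a median of 0.037, against -0.023 for differently numbered ones. For asparaginase against untreated in Sem, same-numbered libraries correlated at 0.094, 0.072 and 0.071, and all differently numbered ones were negative. Pairing in Sem is thus not settled either. All p-values given come from fits without a block unless the block is named. The procedure was tested on simulated data.

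Values per library are given for genes called with a change of at least 0.5 against untreated cells in a line, and from the wider list at most the 5 called genes with the largest change per comparison. The 34 genes and all lists were chosen with earlier results of these data known. The other precursor B cell markers are not reported here. Tables and figures were made with Python 3.11.15.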

Additional observations from a re-analysis of the deposited data

Results flagged for a closer look

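The results listed here are those in which a change differed between the lines, or in which the joint change differed from the sum of the single ones, by a limma test of the difference itself (adjusted p under 0.05). All values are on the log2(FPKM + 1) scale, and no explanation was tested. In Nalm6 the combination change lay above the sum of the single changes by 0.29 for SQSTM1 and by 0.30 for GLA. For GLA, which fell, this was a smaller fall than the sum. These calls were lost in 12 and 15 of 21 alternatives, in that order.

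For ibrutinib, the Sem minus Nalm6 difference in change was -0.73 for PSAP, -0.64 for CTSZ and -0.48 for CTSB, and 0.55 for ULK1. The CTSZ value is bounded by its near absence from Nalm6.

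For asparaginase, MAP1LC3B differed by -1.67, PSAP by -0.82, NBR1 by -0.71, CTSB by -0.59 and HEXA by -0.50. NEU1 differed by -0.43, SQSTM1 by -0.41, TFE3 by -0.39 and CTSA by -0.30. ATG4A and ATG5 differed the other way, by 0.36 and 0.32, both having fallen in Nalm6 and not passed in Sem. The TFE3 call was lost in 5 of 21 alternatives and those of CTSA and ATG4A in 1 each.

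For the combination, MAP1LC3B differed by -1.63, PSAP by -1.56 and CTSB by -1.04. Among the other lysosomal genes the difference was -0.75 for CTSD, -0.69 for NEU1, -0.62 for CTSZ, -0.49 for HEXA, -0.46 for CTSA, -0.42 for LAMP1 and -0.28 for LAMP2. Among the receptors and factors it was -0.60 for NBR1, -0.52 for SQSTM1 and -0.48 for TFE3. ATG12 differed by -0.35, ATG14 by -0.31 and BECN1 by -0.20, while WIPI1 and ATG4A differed by 0.41 and 0.36. Of these calls, WIPI1 was lost in 14 of 21 alternatives, BECN1 in 10 of 21, ATG14 and CTSZ in 2 each and ATG4A in 1.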

How the results depend on the processing

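Of 182 calls of the 34 genes in 16 comparisons, 131 held under every alternative run, 51 were lost under at least 1 and 0 changed sign. TPM rescaling lost 17, no filter 17, leaving out the libraries that stood apart 15, quantile normalization 13, limma-voom 12, the correction for GC content and length 4 and a pseudocount of 0.1 2. The count of called genes moved by over 1.5 times in 5 comparisons, and the cause was not tested. For ibrutinib in Nalm6 it was 5, and 8 with limma-voom, without the libraries that stood apart, with the GC and length correction and with the lines fitted together; leaving out 1 library gave 3 to 5, the 3 without ibrutinib 1. For the departure from the sum in Nalm6 it was 2, and 1 with no filter or quantile normalization, 0 with TPM or limma-voom, 4 with the GC and length correction or the lines fitted together, 6 without the libraries that stood apart, and 0 to 2 when 1 library was left out. For asparaginase in Sem it was 8, and 5 with TPM, 4 with the lines fitted together, and 5 to 8 with 1 library left out, the 5 without untreated 1 or asparaginase 2. For the combination against ibrutinib in Sem it was 3, and 6 with limma-voom, 5 with the GC and length correction, 1 without the libraries that stood apart and 0 to 2 with 1 library left out. For the departure from the sum in Sem it was 0, and 1 with TPM and 0 to 1 with 1 library left out, the 1 without asparaginase 3.

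Same-numbered libraries of a line correlated between -0.181 and 0.371 in Nalm6 and between -0.029 and 0.104 in Sem. By a cut of 0.1 on each value, the numbers were taken as possible pairs only for the combination against asparaginase in Nalm6. There the replicate block lost the CTSD call and no other. Whether the numbers are pairs in Sem was not settled. With the replicate block, 20 genes were called for the combination in Nalm6 and 15 in Sem, against 19 and 15 without it, and 5 of the 182 calls were lost. Depth limits genes under about 1 FPKM, such as CTSZ in Nalm6.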
